A study of Mus musculus with 25 samples.

Results

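The EGF receptor family of the mouse, the receptor tyrosine kinases Egfr, Erbb2, Erbb3 and Erbb4, was followed through RNA-seq and ATAC-seq of the islet tumour lines αTC1 and βTC6. RNA values were taken from the rows whose symbol equals one of these names, which gave 4 of 24439 genes. Open chromatin was taken from the consensus peaks whose nearest annotated gene is one of them, which gave 39 of 65053 peaks, with 14 at Egfr, 24 at Erbb4, 1 at Erbb3 and 0 at Erbb2. The family was picked with its values in the pure lines in view, so the comparison of the pure lines is given here as a description of the members: no p is given for them, counts past a call threshold only describe them, and nothing is read from these counts. The 9 mixtures are separate libraries, but blends of the same 2 lines, so their slopes are not independent of the difference between the lines.

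αTC1, a clone of glucagon-producing cells, and βTC6, an insulin-producing line, come from islet tumours of mice that carry the SV40 T antigen under the glucagon and the insulin promoter. They were grown in media that differ in glucose and in the share of serum, so the line and its medium cannot be told apart. RNA-seq was done on 3 libraries and ATAC-seq on 5 libraries of each untreated line, and ATAC-seq also on 9 mixtures holding 10 to 90% βTC6 cells in steps of 10%, with 1 library each. No source says that replicates were separate cultures, so p-values measure the spread between these libraries, which may be technical. RNA libraries held 21954031 to 26033482 expected counts, and ATAC-seq libraries 4397851 to 10374903 reads in consensus peaks. The line names were checked against hormone genes, in FPKM, a level scaled to transcript length and library size. Gcg lay at 12113 to 14406 in αTC1 against 172 to 267 in βTC6, whereas Ins2 lay at 23541 to 35748 in βTC6 and at 0.19 to 0.64 in αTC1. Of 4 delta, PP and epsilon markers, which summed to 0.31 to 1.04 in αTC1 and 238 to 349 in βTC6, Sst was at 0 and at 207 to 325, Ppy at 0.09 to 0.10 and at 3.70 to 50.8, and Hhex and Ghrl stayed below 1 in all libraries. Summed over each list, 3 endothelial markers reached at most 0.29 and 3 immune markers at most 2.19 in any library, 4 duct markers 8.45 to 14.5 in αTC1 and 7.37 to 13.7 in βTC6, 4 acinar markers 3.58 to 3.73 and 0.22 to 0.82, and 4 stromal markers 2.47 to 3.50 and 0.34 to 0.54. The defining duct marker Krt19 stayed at or below 0.08, while Sox9, another duct marker, was at 4.05 to 4.42 in αTC1 and at 0 in βTC6. The part of such cells in the receptor values was not tested.

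The 4 receptors share an extracellular ligand-binding region, a single membrane pass and an intracellular kinase region, and signal as pairs. Egfr binds EGF, TGF-alpha, amphiregulin and related ligands, Erbb3 and Erbb4 bind neuregulins, Erbb2 has no known ligand of its own and is the favoured partner of the others, and Erbb3 has a kinase with little activity and depends on its partner. In the pancreas, EGF receptor signalling is known for its role in islet development and in the growth of beta-cell mass.

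RNA of the family was split between the lines by receptor. Egfr RNA was present in βTC6 and not detected in αTC1, Erbb3 RNA was higher in αTC1, and Erbb2 and Erbb4 RNA stayed below 1 FPKM in all 6 libraries. On the FPKM scale, which allows levels to be compared between genes, Egfr made up 96.7 to 97.1% of the family's summed level in βTC6, and Erbb3 made up 97.7 to 99.3% of it in αTC1. The order in βTC6 was Egfr, Erbb3, then Erbb4 and Erbb2, and these last 2 did not differ beyond their spread. In αTC1 Erbb3 stood first. Erbb4 and Egfr were at or under the floor of 3 counts in each library, and Erbb2 had 1, 3 and 7 counts, so the others were not ranked. Since these are bulk samples, fewer expressing cells and less RNA per cell cannot be told apart.

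**Figure D1:**
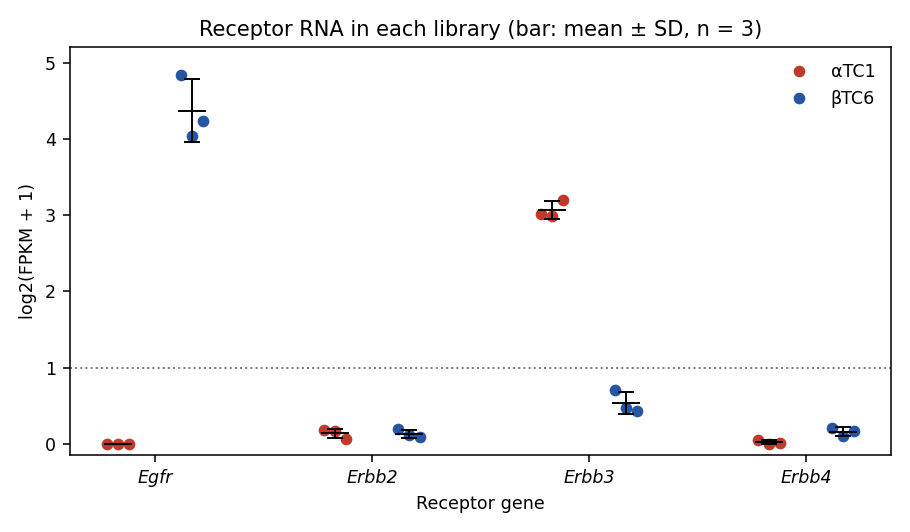
RNA level of each receptor as log2(FPKM + 1) on the vertical axis, with 1 point per library (red αTC1, blue βTC6) and black bars for the mean ± SD of 3 libraries. The dotted line marks 1 FPKM. Egfr in βTC6 and Erbb3 in αTC1 lie above it, and all other points lie below it.

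Egfr (ENSMUSG00000020122), on the plus strand of chromosome 11 at chr11:16652206-16818161 (mm9), had FPKM of 27.6, 15.5 and 17.8 in βTC6 libraries 1 to 3, a mean of 20.3 ± 6.42 (SD, n = 3). It had an expected count of 0 in each αTC1 library, so the lines did not overlap. The βTC6 counts were 3459, 2241 and 3192. Relative to total counts, Egfr in the lowest βTC6 library was at least 625-fold higher than in αTC1, taking the floor of 3 counts in the αTC1 library where it is largest. Among all genes, Egfr stood higher than 77.7 to 85.9% of the genes in the βTC6 libraries.

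Egfr counts and FPKM set the βTC6 libraries apart to different extents. Library 3 had nearly as many counts as library 1, yet a lower FPKM. Dividing counts by FPKM and by the library's total gives a quotient that scales with the transcript length behind each value, which was 4869, 5568 and 7315 bases for Egfr in βTC6 libraries 1, 2 and 3. For Erbb3, which has a single transcript of 6016 bases in GENCODE vM1, the same quotient lay between 6065 and 6167 bases in all 6 libraries. GENCODE vM1 lists for Egfr protein-coding transcripts of 10208, 2943, 2212 and 463 bases, and the Egfr quotients lie between the shorter ones and the longest. The length behind the Egfr values thus differed between βTC6 libraries, which was noticed after the values were seen.

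Erbb3 (ENSMUSG00000018166), on the minus strand at chr10:128004579-128026708, had FPKM of 7.08, 6.93 and 8.22 in αTC1 and of 0.63, 0.38 and 0.35 in βTC6. Every αTC1 library stood above every βTC6 library. The means were 7.41 ± 0.705 and 0.453 ± 0.154 (SD, n = 3 each), and the log2 fold change of βTC6 over αTC1 from edgeR was -3.97 (standard error, SE, 0.20). Counts were 951, 1029 and 1259 in αTC1 against 99, 60 and 53 in βTC6, so Erbb3 was low but detected in βTC6.

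Erbb4 (ENSMUSG00000062209), on the minus strand at chr1:68078760-69154633, had FPKM of 0.04, 0 and 0.01 in αTC1 and of 0.16, 0.07 and 0.12 in βTC6. Its counts were 2, 0 and 3 against 49, 22 and 37, and all βTC6 libraries exceeded all αTC1 libraries. Scaled to the libraries' totals, the summed counts had a ratio of 20.2 (95% exact interval 8.38 to 63.3, counting error only). Erbb2 (ENSMUSG00000062312), on the plus strand at chr11:98273784-98299030, had FPKM of 0.13, 0.12 and 0.05 in αTC1 and of 0.14, 0.08 and 0.06 in βTC6, and these overlapped. Its counts were 1, 3 and 7 against 18, 10 and 7, with a ratio of 2.97 (95% exact interval 1.47 to 6.48, counting error only). The Erbb2 counts and FPKM thus order the lines differently, at a depth of at most 18 counts.

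Erbb2 and Erbb4 did not pass the expression filter of 1 FPKM in all replicates of a line, and Egfr and Erbb3 did. Both receptors that passed met the call, an FDR below 5% together with a log2 fold change beyond 2 in size, Egfr higher in βTC6 and Erbb3 higher in αTC1, while 10.2% of the 12195 genes that passed were called higher in βTC6 and 4.08% higher in αTC1, 14.3% in all. The genes closest to Egfr over the 6 libraries, by Euclidean distance of log2(FPKM + 1), were Gabbr2 at 0.41, Barhl1 at 0.46 and Gna13 at 0.48. Closest to Erbb3 were 4930581F22Rik at 0.53 and AI646023 at 0.55.

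Most peaks at Egfr were higher in βTC6, several of them with few reads in αTC1. Of its 14 peaks, 6 lay upstream of the start site, from -88.5 to -14.7 kb, and 8 had their centre in an intron, from 0.4 to 58.6 kb, the first of these also overlapping the first exon and its UTR. ATAC-seq values are TMM-normalized read counts per peak. At the promoter peak, chr11:16651950-16653262, αTC1 libraries 1 to 5 held 5.32, 1.83, 3.31, 5.46 and 3.90, and βTC6 libraries 1 to 5 held 45.3, 39.4, 42.3, 38.5 and 41.5. The lowest βTC6 value was several times the highest αTC1 value. The means were 3.96 ± 1.51 and 41.4 ± 2.66 (SD, n = 5), with a log2 fold change of 3.15 (SE 0.18) on log2(value + 1).

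A peak upstream of Egfr differed as much as the promoter did. At -44.0 kb, in chr11:16607673-16608794, αTC1 libraries held 2.24, 4.21, 4.36, 3.82 and 4.33 and βTC6 libraries 40.5, 45.7, 41.5, 43.9 and 36.7. This distal peak was as high as the promoter peak in βTC6 and as low in αTC1, with a log2 fold change of 3.17 (SE 0.15). The 300 bases before the Egfr start site, 256 of them inside the promoter peak and none in an exon, and the central 300 bases of the peak at -44.0 kb are printed to show how the 2 windows differ in composition. Capitals mark matches, on either strand, of GGGCGG (a GC box), TAATTA (a homeodomain core), CAGCTG (an E-box) or TGANTCA (an AP-1 site). Both are plus-strand mm9 sequence.
Egfr promoter, chr11:16651906-16652205: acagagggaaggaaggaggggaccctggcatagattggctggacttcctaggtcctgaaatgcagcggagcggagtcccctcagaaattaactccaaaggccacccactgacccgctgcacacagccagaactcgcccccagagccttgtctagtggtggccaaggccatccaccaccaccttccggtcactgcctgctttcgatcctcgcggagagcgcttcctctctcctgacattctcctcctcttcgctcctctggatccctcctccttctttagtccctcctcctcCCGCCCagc
Egfr distal peak, chr11:16608084-16608383: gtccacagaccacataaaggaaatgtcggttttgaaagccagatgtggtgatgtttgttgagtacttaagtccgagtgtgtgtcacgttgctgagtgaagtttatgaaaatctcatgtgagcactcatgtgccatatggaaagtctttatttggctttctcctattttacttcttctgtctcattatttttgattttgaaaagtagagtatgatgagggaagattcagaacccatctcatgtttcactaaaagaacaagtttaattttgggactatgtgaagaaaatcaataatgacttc
The promoter window has 60.0% G and C and holds 1 GC box, a motif found in 40.9% of the windows before 22380 protein-coding genes. The distal window has 36.3% G and C and holds none of the 4 motifs.

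Of the 14 Egfr peaks, 7 met the same call on the log2 scale, all higher in βTC6, while 12.9% of the 65053 peaks were called in that direction and 18.3% in either. They were 4 of the upstream peaks, the promoter peak and 2 intronic peaks. The upstream peaks at -69.3, -52.0 and -50.2 kb had means of 18.1 ± 3.39, 5.73 ± 2.42 and 9.73 ± 2.25 in βTC6 against 1.33 ± 0.558, 0.198 ± 0.0725 and 0.904 ± 0.561 in αTC1. The intronic peaks at 48.5 and 58.6 kb had 31.2 ± 5.94 and 31.6 ± 1.83 in βTC6, and their log2 differences from αTC1 were 2.56 and 3.13. Egfr log2 fold changes ran from 0.54 to 3.17 with a median of 2.18, next to a median of 0.0011 over all peaks. At 12 of the 14 peaks every βTC6 library exceeded every αTC1 library, an order found at 33.7% of all peaks. The peaks at -88.5 and 20.6 kb overlapped. Just outside the threshold lay the intronic peak at 9.2 kb, at 8.83 ± 2.55 in βTC6 and 1.51 ± 0.457 in αTC1, and just inside it the peak at -52.0 kb, with a log2 fold change of 2.41.

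**Figure D2:**
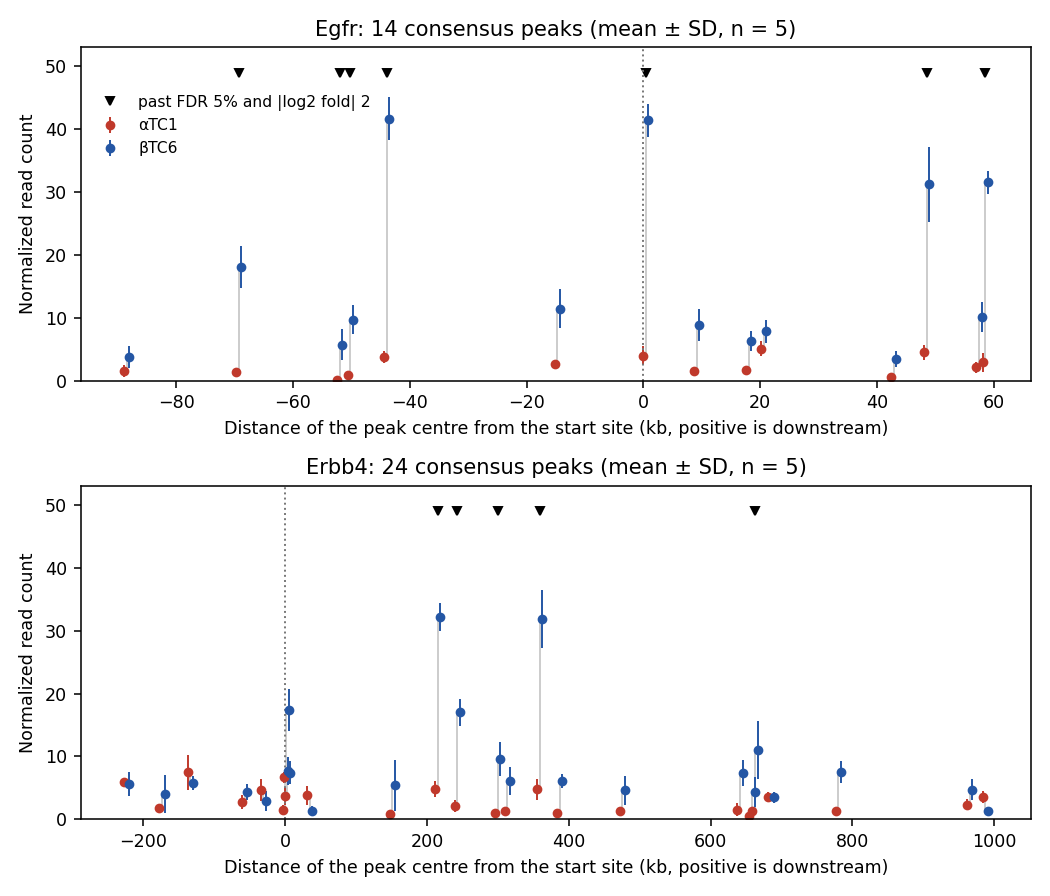
Mean normalized read count ± SD of 5 libraries per line (red αTC1, blue βTC6) for each Egfr peak (top) and Erbb4 peak (bottom), against the distance of the peak centre from the start site in kb. Triangles mark the 7 Egfr and 5 Erbb4 peaks past the call threshold, the dotted line marks the start site, and grey lines join the 2 means of a peak.

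At Erbb3 the promoter was open in both lines, at overlapping levels. The single peak, chr10:128026519-128027812, has its centre at -0.6 kb and overlaps the first exon and its UTR. αTC1 libraries held 21.4, 23.3, 22.8, 16.9 and 19.5 and βTC6 libraries 19.5, 24.8, 20.7, 20.8 and 14.3, so the lines overlapped. The means were 20.8 ± 2.63 and 20.0 ± 3.79 (SD, n = 5), and the log2 fold change was -0.06 (SE 0.14). Replicates 1 to 3 alone gave -0.06 and replicates 4 and 5 alone, whose read statistics the study lists in another way, gave -0.07. The Egfr promoter gave 3.35 and 2.86 in these sets. The 300 bases before the Erbb3 start site, all inside this peak and outside exons, are printed from the minus strand, with the same motifs in capitals.
Erbb3 promoter, chr10:128026709-128027008: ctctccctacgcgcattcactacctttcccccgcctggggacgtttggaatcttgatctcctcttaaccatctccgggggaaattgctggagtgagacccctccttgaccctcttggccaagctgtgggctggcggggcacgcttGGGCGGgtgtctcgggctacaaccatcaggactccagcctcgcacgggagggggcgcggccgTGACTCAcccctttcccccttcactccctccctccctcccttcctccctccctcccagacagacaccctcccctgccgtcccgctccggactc
The window has 65.0% G and C and holds 1 GC box and 1 AP-1 match, the latter found in 7.11% of promoter windows.

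A further peak, inside the Erbb3 gene at chr10:128020224-128021208, is assigned by the annotation to the microRNA gene Mir6917 and so is no member. It was looked at after its values were seen. There the αTC1 libraries held 37.3 to 43.3, with a mean of 39.1 ± 2.43, and the βTC6 libraries 3.19 to 12.1, with a mean of 7.15 ± 3.37 (SD, n = 5). Its log2 fold change was -2.40 (SE 0.21). Across the mixtures, it fell by 0.24 on the log2 scale for each 10 percentage points of βTC6 cells (SE 0.03, adjusted p = 8.93e-06 from limma). Within Erbb3, the lines thus overlapped at the promoter and did not overlap at this internal peak. All αTC1 libraries stood above all βTC6 libraries at 30.2% of all peaks, and 24.8% of all peaks fell across the mixtures. Of 4 other peaks that lie inside a receptor gene but are assigned to another gene, 2 are inside Egfr and assigned to Eldr. The one at chr11:16777894-16778128 ran against the rest of the gene, at 2.58 ± 1.28 in αTC1 and 0.604 ± 0.497 in βTC6, and fell by 0.15 on the log2 scale for each step of the mixtures (adjusted p = 0.0261 from limma). The lines overlapped there, with αTC1 library 1 at 1.12 and βTC6 library 1 at 1.42. The one at chr11:16771057-16771653 held 3.01 ± 0.520 in αTC1 and 7.10 ± 1.67 in βTC6, and its slope did not pass (adjusted p = 0.199). The 2 inside Erbb4, assigned to Cps1, held 1.10 ± 0.842 and 0.869 ± 0.457 in αTC1 and 5.17 ± 2.43 and 4.50 in βTC6, and both rose across the mixtures (adjusted p = 0.000305 and 0.014).

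Erbb4 had the most peaks of the family and almost no RNA. Its 24 peaks spread over more than a megabase, with 5 upstream, at -223.7 to -31.1 kb, and 19 inside the gene, 17 of these centred in introns and 2 in exons. At the peak over the first exon, 0.3 kb from the start site, chr1:69153949-69154627, αTC1 libraries held 2.24, 1.83, 1.95, 0.68 and 0.43 and βTC6 libraries 5.96, 7.59, 11.5, 6.28 and 7.04. All βTC6 libraries were higher, at a mean of 7.67 against 1.43 (n = 5). The log2 fold change was 1.88 (SE 0.26), below the threshold. The next peak, at 1.6 kb in the first intron, was higher in both lines, at 17.3 ± 3.33 in βTC6 and 6.70 ± 0.856 in αTC1.

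The called Erbb4 peaks lay deep in introns. At 242.5 kb, in chr1:68911657-68912511, αTC1 libraries held 2.66, 1.26, 1.35, 3.55 and 1.59 and βTC6 libraries 18.0, 14.8, 15.9, 16.1 and 20.2. The log2 fold change was 2.59 (SE 0.22), close to the 2.55 and 2.53 of the peaks at 359.0 and 215.3 kb. The peaks at 215.3 and 359.0 kb were higher still in βTC6, at 32.2 ± 2.19 and 31.8 ± 4.61, against 4.85 ± 1.26 and 4.74 ± 1.69 in αTC1. With those at chr1:68854478-68854868 and at 662.5 kb, they make up the 5 of 24 Erbb4 peaks that met the call, all higher in βTC6 and all intronic, where 12.9% of all peaks were called in that direction. The last of these had a log2 fold change of 1.89 in replicates 1 to 3 alone and of 2.98 in replicates 4 and 5. The central 300 bases of the peak at 242.5 kb are printed, from the plus strand, as a window of a called intronic peak.
Erbb4 intronic peak, chr1:68911935-68912234: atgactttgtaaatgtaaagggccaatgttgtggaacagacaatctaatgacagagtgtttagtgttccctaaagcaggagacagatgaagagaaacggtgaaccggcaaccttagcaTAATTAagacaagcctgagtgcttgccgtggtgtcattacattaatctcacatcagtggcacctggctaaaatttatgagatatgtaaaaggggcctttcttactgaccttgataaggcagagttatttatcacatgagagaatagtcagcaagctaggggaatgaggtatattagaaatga
It holds 1 homeodomain core. TAATTA matches stood in 9 of the 24 Erbb4 peak centres and in 2 of the 14 Egfr ones, and in 9.86% of all peak centres. The GC box stood in 0 and 1 of them and in 19.8% of all, the E-box in 6 and 2 and in 23.8%, and the AP-1 site in 2 and 3 and in 14.5%. Erbb4 peak centres had a median of 40.3% G and C, Egfr ones 42.8% and all peak centres 48.0%, so the windows differ in base composition as well.

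Not all Erbb4 chromatin was more open in βTC6. Log2 fold changes ran from -1.02 to 2.59 with a median of 1.42, and 15 of the 24 peaks had every βTC6 library above every αTC1 library, as 33.7% of all peaks did. The most negative peaks lay at 34.4 kb, at 3.81 ± 1.54 in αTC1 and 1.34 ± 0.711 in βTC6, and at 987.5 kb, at 3.54 ± 0.990 and 1.32 ± 0.603 (SD, n = 5), and both overlapped between the lines. At low peaks of the locus 1 library could stand apart. At 151.2 kb, βTC6 libraries 1 to 4 held 3.08 to 4.54 and library 5 held 12.6, while αTC1 held 0.27 to 1.59. Without library 5 the log2 fold change there was 1.32 in place of 1.63. βTC6 library 5 was the highest of the 5 at 14 of the 24 Erbb4 peaks, as it was at 30.2% of all peaks, and the lowest at 8 of the 14 Egfr peaks, as at 26.0% of all. Its part in these values was not tested beyond leaving it out. Over the family, 12 of 39 peaks met the call in βTC6 and 0 in αTC1, where 5.38% of all peaks did. By FDR alone 31 were higher in βTC6, 2 in αTC1 and 6 did not pass, next to 39.9%, 38.1% and, for both directions, 78.0% of all peaks. No member peak had all αTC1 libraries above all βTC6 libraries, an order found at 30.2% of all peaks. The count of 12 rests on the pseudocount, since it was 19 with 0.5 and 3 with 5 in place of 1, and 23 with edgeR on the recovered whole reads, settings that called 17.3, 2.56 and 21.2% of all peaks in that direction. After quantile normalization it was 11 in βTC6 and 0 in αTC1, where 8.69 and 7.88% of all peaks were called.

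No consensus peak overlapped Erbb2. The nearest peaks were assigned to Pgap3, 11610 bases before the gene, and to Mien1, 865 bases beyond its end. A peak had to be called in at least 2 libraries to enter the consensus set.

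The mixtures show how closely these regions follow the share of βTC6 cells. Since they blend the lines on which the family was picked, a slope is no independent support for a difference between the lines, and its p tests only the trend within these 9 libraries. Slopes were fitted with limma across the 9 mixtures, as the change of log2(value + 1) for each 10 percentage points of βTC6 cells. With an FDR under 5% over all peaks, 26 of the 39 peaks rose with the βTC6 share and 0 fell, next to 33.5% of all 65053 peaks that rose and 24.8% that fell, 58.3% in all. Rising peaks were 10 of 14 at Egfr and 16 of 24 at Erbb4. The median slope was 0.19 at Egfr and 0.18 at Erbb4, and 0.0093 over all peaks.

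At the Egfr promoter the mixtures with 10, 20 and 30% βTC6 cells held 7.72, 5.73 and 9.06, those with 40, 50 and 60% held 13.3, 21.8 and 21.4, and those with 70, 80 and 90% held 22.3, 24.4 and 36.2. The value climbed with the βTC6 share, with a slope of 0.29 (SE 0.03, adjusted p = 1.09e-06 from limma). It lay at a median of 0.741 times the value on a straight line between the line means. Taken over all peaks within each of the 9 mixtures, a different summary, the median ratio lay between 0.918 and 1.004. Medians per peak at Egfr ran from 0.537 at -50.2 kb to 1.86 at 42.9 kb. The peak at -44.0 kb rose with a slope of 0.28 (SE 0.03, adjusted p = 1.25e-06) and the intronic peak at 58.6 kb with 0.30 (SE 0.03, adjusted p = 6.68e-07). Slopes at the Egfr peaks at -88.5, -14.7, 18.1 and 20.6 kb did not pass, with adjusted p of 0.722, 0.188, 0.0911 and 0.651.

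The Erbb3 promoter showed no slope that passed, at -0.04 (SE 0.03, adjusted p = 0.254 from limma), with mixtures between 11.7 and 17.7. All 9 mixtures lay below the means of both pure lines, at 0.573 to 0.870 times the straight line between them. At Erbb4, the intronic peak at 242.5 kb held 2.44, 5.04, 5.40, 5.25, 8.48, 8.09, 10.9, 12.2 and 12.4 from 10 to 90% βTC6 cells, a slope of 0.23 (SE 0.04, adjusted p = 6.85e-05). The promoter peak of Erbb4 rose with 0.19 (SE 0.04, adjusted p = 0.00168). At 151.2 kb, where a single βTC6 library was high, the mixtures rose with 0.29 (SE 0.05, adjusted p = 0.000171) and held 8.07 to 8.61 at 70 to 90% βTC6 cells, above βTC6 libraries 1 to 4.

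**Figure D3:**
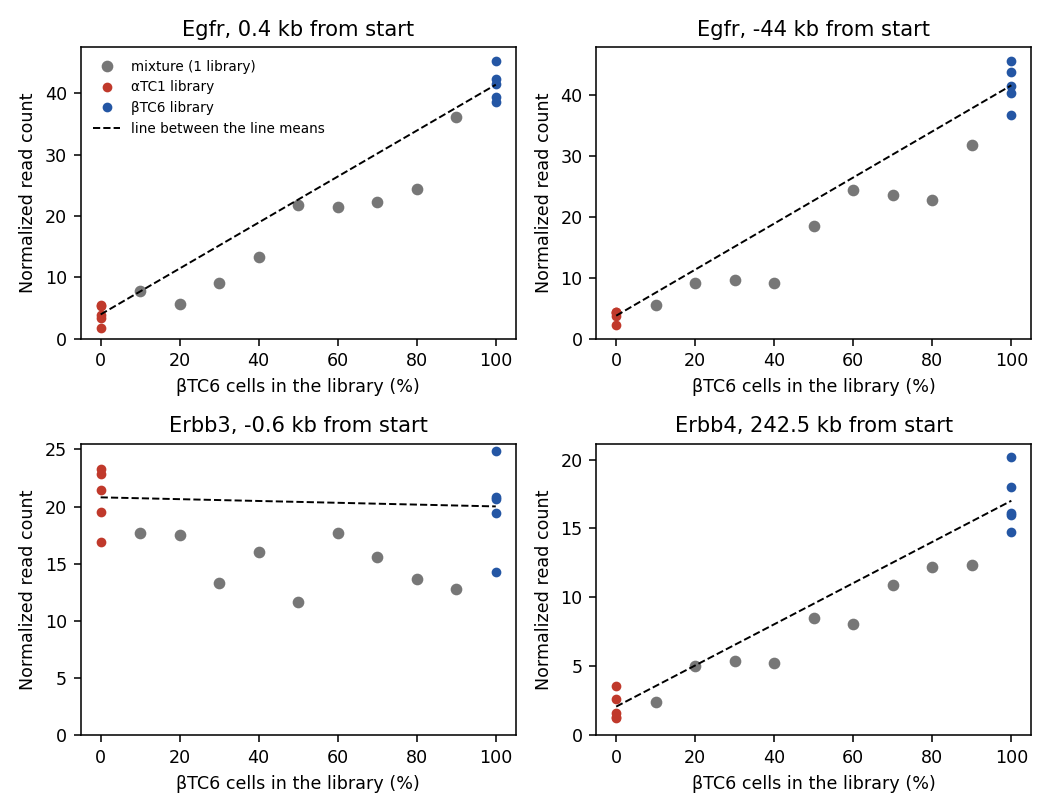
Normalized read count against the percentage of βTC6 cells for the Egfr promoter peak, the Egfr peak at -44 kb, the Erbb3 promoter peak and the Erbb4 intronic peak. Grey points are single mixtures, red and blue points the 5 libraries of each pure line, and the dashed line joins the line means. The Egfr and Erbb4 peaks climb with the βTC6 share, while at Erbb3 the 9 mixtures lie between 11.7 and 17.7.

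The ligands that the receptors bind were then read in the same RNA libraries. Of 7 EGFR ligands, 3 passed the expression filter, and of 4 neuregulins 0 did. Tgfa, which encodes TGF-alpha, had FPKM of 5.74, 5.30 and 5.91 in βTC6 and of 0, 0.04 and 0.01 in αTC1. It was higher in βTC6, as Egfr was, its counts being 5 against 1638 in sum, a ratio of 306 (95% exact interval 131 to 943, counting error only; adjusted p = 1.17e-07, edgeR). Of those 5 counts 4 were in αTC1 library 2, and without it the fitted log2 fold change went from 8.21 to 9.72. Hbegf, heparin-binding EGF-like growth factor, was in both lines, at 5.49 ± 0.430 in αTC1 and 9.77 ± 1.11 FPKM in βTC6 (SD, n = 3), with a log2 fold change of 0.89 (SE 0.12, adjusted p = 0.000139, edgeR). Egf itself was low, at 1.31 ± 0.131 in αTC1 and 0.82 ± 0.182 in βTC6, with a log2 fold change of -0.55 (SE 0.21, adjusted p = 0.0406). The neuregulins Nrg1 and Nrg3 had means of 1.08 ± 0.221 and 1.05 ± 0.167 FPKM in βTC6 but stood at 0.83 and 0.87 in 1 library each, so they were not tested. In αTC1, which holds Erbb3, Nrg1 had 2, 1 and 0 counts and Nrg3 had 0 in every library, while Nrg2 had 9, 4 and 11 and Nrg4 about 10 to 13. Nrg2 and Nrg4 were below 1 FPKM in βTC6 too, at 0.44 to 0.79 and 0.12 to 0.52. Nrg4 overlapped between the lines. Nrg2 did not, at 0.05 to 0.21 FPKM in αTC1, and its count ratio was 4.67 (95% exact interval 2.99 to 7.57, counting error only).

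Of 76 genes of the pathway listed for this report, 75 were in the table and 62 were tested, and Hras was not analysed here. With the FDR and fold threshold, 13 were called higher in βTC6 and 1 in αTC1, next to 10.2% and 4.08% of all genes tested. The median log2 fold change over the 62 was 0.28, against 0.0094 over all genes tested. By FDR alone 29 were higher in βTC6, 19 were higher in αTC1 and 14 did not pass, next to 38.7% and 36.0% of all genes tested, 74.6% in all. The lists were drawn up with earlier results of these data known.

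Of the 14 genes past the threshold, 6 were adaptors or first effectors, 5 were immediate early or target genes, and the others were Tgfa, Rhbdf1 and Spry1. Of the 20 tested adaptors and first effectors, 6 were called, all higher in βTC6, where 10.2% of all genes tested were. Prkca and Prkcb, which encode protein kinase C isoforms, had 15.9 ± 2.78 and 7.98 ± 1.51 FPKM in βTC6 against 2.10 to 2.40 and 0 to 0.01 in αTC1. Grb7, an adaptor that binds Erbb receptors and whose gene lies in the same stretch of chromosome 11 as Erbb2, had 12.2, 11.5 and 8.10 FPKM in βTC6 and 0.02 in each αTC1 library, with 3 αTC1 counts in all and a ratio of 584 (95% exact interval 199 to 2832). Src, a cytoplasmic tyrosine kinase, had a log2 fold change of 3.09 (SE 0.28, adjusted p = 8.24e-06, edgeR). The docking protein Gab1 had 4.68 (SE 0.32, adjusted p = 1.46e-06) and the adaptor Shc3 had 2.87 (SE 0.39, adjusted p = 0.000126). By FDR alone 10 of the 20 were higher in βTC6 and 6 in αTC1, next to 38.7 and 36.0% of all genes tested. The other 4 did not pass. Those higher in αTC1 include abundant relatives of the called adaptors, Shc1 at 67.3 ± 7.01 FPKM against 38.7 ± 2.47 in βTC6 and Gab2 at 7.44 ± 0.694 against 3.34 ± 0.0833 (SD, n = 3), and Sos1, Sos2, Crkl and Stat5b, with log2 fold changes of -1.10 to -0.52. The general adaptor Grb2 had 0.05 and did not pass. Of 9 tested Ras and MAP kinase genes and 10 PI3K and Akt genes, 0 met the threshold in either direction. The threshold was met by 14.3% of all genes tested. By FDR alone, 8 of the 19 Ras, MAP kinase, PI3K and Akt genes were higher in αTC1 and 5 in βTC6. Of all genes tested, 36.0 and 38.7% were.

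The one gene called in αTC1 was Rhbdf1, an inactive rhomboid protein that helps the sheddase ADAM17 to release ligands, at 1.92 ± 0.180 FPKM in αTC1 and 0.473 ± 0.150 in βTC6 (log2 difference -2.09, SE 0.21, adjusted p = 1.73e-05, edgeR). Its relative Rhbdf2 went the other way with 1.74, inside the fold threshold. Among 10 tested inhibitors, Spry1, a Sprouty protein that restrains receptor signalling to MAP kinase, was called, at 1.79, 2.03 and 2.58 FPKM in βTC6 and 0, 0.02 and 0.06 in αTC1. Of its 5 αTC1 counts 4 were in library 3, and without that library the fitted log2 fold change went from 6.20 to 7.69. The feedback inhibitors Errfi1 and Dusp6 were higher in βTC6 by FDR alone, at 0.43 and 1.03 on the log2 scale, and Spry2 at 0.78. The Sprouty-related inhibitors Spred1 and Spred2 and the ubiquitin ligase Cbl, which marks the receptor for degradation, were higher in αTC1 by FDR alone, at -0.90, -1.48 and -0.61. The other 3 tested inhibitors did not pass, while 74.6% of all genes tested passed by FDR alone.

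Of 6 tested immediate early and target genes, 5 were called higher in βTC6, where 10.2% of all genes tested were, and their levels varied widely between βTC6 libraries. Fos, a subunit of AP-1, had FPKM of 104, 18.3 and 236 in βTC6 and of 26.6, 22.8 and 8.37 in αTC1, so the lines overlapped. Its log2 fold change was 2.69 (SE 0.77, adjusted p = 0.0106, edgeR) and 1.71 without βTC6 replicate 3, where the call was lost. Jun, its AP-1 partner, had 63.7, 25.1 and 111 against 12.7 to 14.4, and its log2 fold change of 2.36 fell to 1.77 without the same library, which also ended the call. Egr1 had 148, 52.5 and 210 against 8.19 to 22.7, and Myc 7.63, 3.91 and 11.6 against 0.66 to 1.66. Without αTC1 replicate 3 the log2 fold change of Myc went from 2.91 to 3.63. For Fos, Jun, Egr1 and Myc βTC6 library 2 was the lowest and library 3 the highest of their line. Etv4, an ETS factor, ran the other way at 4.03, 5.91 and 2.56 in βTC6 and stood at 0.43 to 0.78 in αTC1. Egfr, with FPKM of 27.6, 15.5 and 17.8, was lowest in library 2 and highest in library 1. It thus shared the lowest library with Fos, Jun, Egr1 and Myc, but not the highest.

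**Figure D4:**
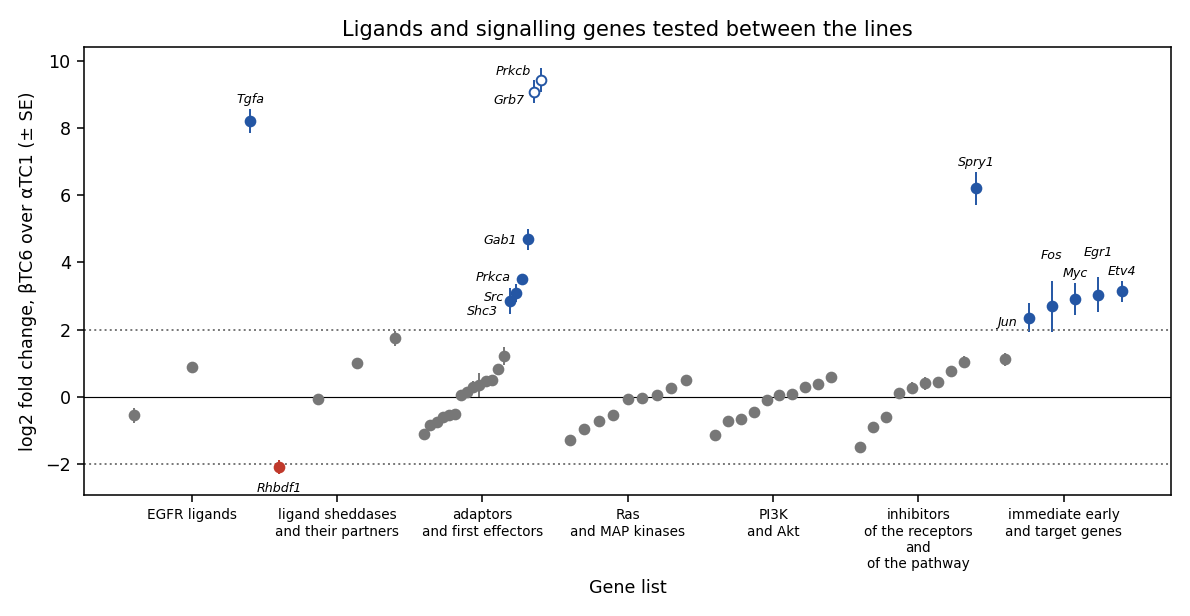
Log2 fold change of βTC6 over αTC1 with its SE for the 62 tested ligand and signalling genes, grouped by list. Blue points were called higher in βTC6 (13), the red point in αTC1 (Rhbdf1), and grey points were not called; open points have at most 3 αTC1 counts in every library (Grb7 and Prkcb), so that their fold depends on the prior count.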

How the data were processed

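ATAC-seq reads were trimmed, aligned to mm9 with BWA, cleared of duplicates with Picard and called into peaks per sample with MACS2 by the authors, who merged peaks found in at least 2 samples with DiffBind and assigned genes with HOMER. They deposited a signal per consensus peak, the TMM-scaled read count. Whole reads were recovered from 100% of these values (tolerance 0.02 reads). RNA-seq expected counts and FPKM were deposited by the authors from Bowtie 2 and RSEM on Ensembl transcripts. Of the columns of sample values, 0 were unmatched. The consensus peaks and their gene assignments are the authors', while their calls of differential peaks were not used.

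Here genes reaching 1 FPKM in every replicate of either line were tested with edgeR 4.0.16 (quasi-likelihood, TMM, counts rounded), and peaks with limma 3.58.1 (trend) on log2(value + 1), in R 4.3.3, with Benjamini-Hochberg adjustment over all features. The study used edgeR for both, with spike-in scaling for RNA-seq. DESeq2 1.42.0, other scalings, filters and pseudocounts, and leaving out libraries were alternatives, the last for mixtures added after the data were seen. Tests were run first on simulated data. Count intervals are 95% exact and, like the floor of 3 counts, cover counting error only. Gene bounds came from GENCODE vM1 and sequences from the mm9 genome.

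Members and lists were chosen with earlier results of these data known. Named were the members with their nearest, called and most changed peaks, ligands, called pathway genes, and the 3 genes most like Egfr and Erbb3, of which 1 is not reported here; other named features were chosen after their values were seen.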

Additional observations from a re-analysis of the deposited data

Results flagged for a closer look

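In each line's 5 ATAC-seq libraries, the highest or lowest value of a member peak was compared with the others, and 6 of 78 groups had a value set apart by more than 0.71 of the group's range; chance sets apart about 1 in 20 groups. At Erbb4, βTC6 library 5 held 12.6 at 151.2 kb, where the others held 3.08 to 4.54, and 9.20 at -173.8 kb, where the others held 2.00 to 3.90. At the Egfr peak at -50.2 kb, βTC6 library 5 held 5.73 and the others 10.5 or more. At the Erbb4 peak at -133.9 kb, αTC1 library 5 held 2.74 against 8.05 to 9.83 in the others, and βTC6 library 2 held 7.79 against 5.14 to 5.54. αTC1 library 1 held 2.24 at the Egfr peak at -44.0 kb, where the others held 3.82 to 4.36.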

How the results depend on the processing

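The count of member peaks called more open in βTC6 was 12, and it was 19 with a pseudocount of 0.5, 3 with a pseudocount of 5 and 23 with edgeR on whole reads, where 12.9, 17.3, 2.56 and 21.2% of all peaks were called. No member peak fell across the mixtures in the limma fit, while 1 did with edgeR on whole reads and 4, all at Erbb4, did after quantile normalization, where 24.8, 28.4 and 28.4% of all peaks fell. The 26 rising peaks became 20 after quantile normalization and 21 without the 10 and 90% mixtures, where 25.9 and 23.4% of all peaks rose. Leaving out 1 library or mixture gave 12 to 13 peaks more open in βTC6, 0 in αTC1, 24 to 27 rising and 0 to 2 falling, and 12 to 14 pathway genes higher in βTC6 and 1 in αTC1. With no expression filter 19 pathway genes were higher in βTC6, and with at least 10 counts in 3 libraries 17 were. Those settings called 12.8 and 13.3% of all genes they tested in that direction. Slopes that did not pass changed sign at the Egfr peaks at -88.5 kb (-0.0134 without the 10 and 90% mixtures, -0.0488 after quantile normalization, -0.0138 to 0.0505 leaving out 1 mixture), -14.7 kb (-0.0130 without the 10 and 90% mixtures) and 20.6 kb (-0.00423 with edgeR, -0.109 without the 10 and 90% mixtures, -0.0227 after quantile normalization, -0.0522 to 0.0624 leaving out 1 mixture), and at the Erbb4 peaks at -223.7 kb (-0.0230 after quantile normalization, -0.0141 to 0.0434 leaving out 1 mixture) and 685.1 kb (0.00344 without the 10 and 90% mixtures). The weakest rising slope, at the Erbb4 peak at 313.0 kb (adjusted p = 0.0466 from limma), was lost under 10 alternatives. The cause was not tested. With the replicate number as a block, 12 pathway genes were higher in βTC6 and 1 in αTC1, and the member peaks called numbered 12 for βTC6 and 0 for αTC1; Fos was lost (log2 fold change 2.15, adjusted p = 0.0623, edgeR). Same-numbered libraries correlated between -0.04 and 0.07 in their deviations, and not every library correlated best with its own number, so the numbers pair nothing. The median log2 fold change of all genes lay between -0.02 and 0.09 under every RNA scaling and filter tried, where Erbb3 lay between -4.03 and -3.92, and leaving out 1 library gave -4.28 to -3.82 for Erbb3. At a few counts per library, differences in Erbb2 were not detectable beyond the interval given.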
